A study of Homo sapiens with 12 samples.

Results

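The transcripts of 8 enzymes that make or destroy deoxynucleotides were followed in human fibroblasts growing in full serum and held in low serum, with and without the gene LEO1. The enzymes were chosen by name, but with earlier results of these data known. They were ribonucleotide reductase (RRM1 and RRM2), the thymidylate branch (TYMS, DUT and DTYMK), the salvage kinases (TK1 and DCK) and the triphosphohydrolase SAMHD1. All 8 were found among the 60671 genes counted, and all 8 were among the 13236 genes with more than 1 CPM (counts scaled to library size) in at least 3 libraries.

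The cells were BJ-5ta, normal foreskin fibroblasts that carry an added telomerase gene (hTERT) and divide without limit. WT_10 and WT_01 were wild-type cells in medium with 10% fetal bovine serum, or kept for 10 days in 0.1%. Leo1_10 and Leo1_01 were ΔLEO1 cells under the same conditions. The ΔLEO1 cells were cut by CRISPR/Cas9 with guides to exons 1 and 2 of LEO1, a subunit of the PAF1 complex that travels with RNA polymerase II, and all of them descend from 1 single-cell clone, so that the loss of LEO1 and other differences of that clone cannot be told apart. Each group had 3 poly(A) RNA libraries, numbered 1 to 3 (WT_10), 4 to 6 (Leo1_10), 7 to 9 (WT_01) and 10 to 12 (Leo1_01), with synthetic ERCC transcripts added. The labels do not say whether the 3 libraries of a group were separate cultures, so the p-values measure the spread between these libraries only.

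Cells that copy their DNA need all 4 deoxynucleotides in balance. Ribonucleotide reductase makes them from ribonucleotides, thymidylate synthase adds the methyl group that turns dUMP into dTMP, and nucleoside kinases recover what is taken up or released. TK1, TYMS and RRM2 are textbook genes of S phase, whereas RRM2B, TK2 and DGUOK supply the smaller need of resting cells and mitochondria. SAMHD1 works in the opposite direction and cleaves deoxynucleoside triphosphates, which keeps their level low in cells that do not divide.

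The values are given on 2 scales, which ask different questions. The spike-in scale gives CPM in which the library size is the ERCC total times its TMM factor in place of the gene total, which keeps a change in total RNA relative to the spikes. The gene scale gives CPM with TMM factors computed on the genes, which sets the bulk of genes to no change. The median of all genes tested was, on the spike-in scale, -0.97 (log2) in WT_01 against WT_10 and -1.05 in Leo1_01 against Leo1_10, and on the gene scale it was 0.0044 and 0.012. Library depth ran from 26240632 to 45315560 gene counts, and ERCC counts were 0.625% to 3.24% of a library. Gene counts per ERCC count were 126, 107 and 67.9 in WT_10 and 159, 118 and 106 in Leo1_10. In low serum they were 47.5, 59.0 and 37.1 in WT_01 and 52.2, 29.8 and 90.5 in Leo1_01. Values on the spike-in scale carry this spread within a group. The study's methods give a dilution of the spikes for each sample. Whether they were added per cell or per amount of RNA is not stated. LEO1 had 682 to 1001 counts in the wild-type libraries and 23 to 55 in the ΔLEO1 libraries, without overlap, a log2 fold change of -4.02 ± 0.49 (SE) in 10% serum and -4.32 ± 0.50 in 0.1% serum, in keeping with the labels. All 10 fibroblast markers examined had counts in every library (57033 to 84917 CPM in sum), and 12 markers of epithelial, endothelial, blood, pigment and muscle cells summed to 2.17 to 9.03 CPM. The muscle factor MYOD1 was at 0 throughout.

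The highest-numbered library of each group (3, 6, 9 and 12) stood apart from the other two. A sum of 20 proliferation genes was 1192 and 1189 CPM in WT_10 libraries 1 and 2 but 429 in library 3, and 611 and 583 in WT_01 libraries 7 and 8 but 849 in library 9. Library 3, labelled 10% serum, thus lay below library 9, labelled 0.1% serum. In ΔLEO1 cells the same sum was 1288, 1422 and 773 CPM in 10% serum, and 821, 797 and 1022 in 0.1% serum. The labels name no batch for these libraries, and the members' fits, the ratios and the counts of the lists are given with and without them.

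None of 6 promoter motifs looked for was found in all 8 members. In the 250 bases before the start given by RefSeq (GRCh38.p14), both strands were searched for the E2F type motifs TTTCCCGC and TTTGGCGC, the CHR type motifs TTTGAA and TTCGAA, the CCAAT box (CCAAT) and the GC box (GGGCGG). TYMS alone among the 8 held an E2F type motif, which 1.93% of all 35116 promoters hold. RRM1 and DTYMK held a CHR type motif (14.3% of all promoters), 4 of the 8 held CCAAT (32% of all promoters) and 4 held GGGCGG (42.6%). DUT held none of the 6 motifs. Stretches of 30 bases around the matches follow, 5′ to 3′ on the strand of the gene, with the motif in capitals, to show the 3 near-identical CCAAT repeats of RRM2, the paired matches of SAMHD1 and DTYMK, and the single match of TYMS.
RRM2, chr2:10122604-10122633 (+): ggcaaggcgcagCCAATgggaagggtcgga
RRM2, chr2:10122634-10122663 (+): ggcatggcacagCCAATgggaagggccggg
RRM2, chr2:10122661-10122690 (+): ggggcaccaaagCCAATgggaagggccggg
SAMHD1, chr20:36951735-36951764 (-): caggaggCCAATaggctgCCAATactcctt
DTYMK, chr2:241686886-241686915 (-): ggccccggCCAATcccTTCGAAtttggccg
TYMS, chr18:657603-657632 (+): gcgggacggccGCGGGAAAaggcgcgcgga
In TYMS the capitals are the reverse complement of TTTCCCGC, 39 to 32 bases before the start. The CCAAT boxes of RRM2 begin 123, 93 and 66 bases before it. A match is a description of the sequence and not a binding site.

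In wild-type cells 7 of the 8 members were called lower after 10 days in low serum, beside 36.1% of all genes tested. In ΔLEO1 cells all 8 were called lower, beside 47.2% of all genes. No member was called higher in either, beside 0.944% and 0.975% of all genes. The quasi-likelihood test of edgeR called the same 7 and 8 members, beside 27% and 36.4% of all genes. The median log2 fold change over the 8 was -1.73 in wild-type cells and -1.52 in ΔLEO1 cells, and the medians of all genes tested stand above. A gene was called where the likelihood ratio test of edgeR gave a Benjamini-Hochberg adjusted p under 0.05 over all 13236 genes. In bulk RNA, fewer cells of a type (here, cells in S phase) and less RNA per cell cannot be told apart.

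**Figure D1:**
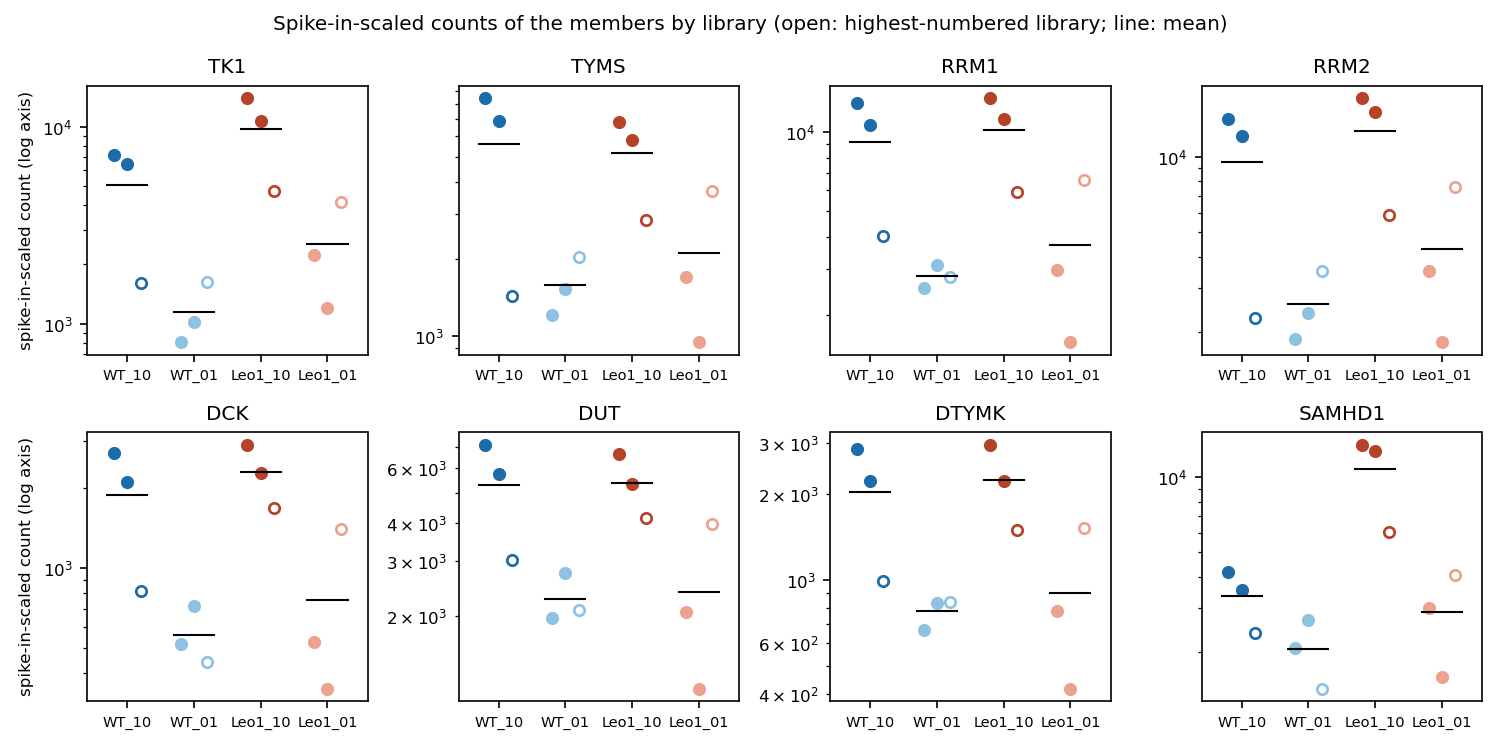
Spike-in-scaled counts (CPM with the ERCC total as library size, log axis) of the 8 members in each of the 12 libraries, by group. Each point is a library, the open point is the highest-numbered library of its group and the line is the mean of 3. For RRM2, the filled points of both 10% serum groups sit between 12166 and 17176 and those of both 0.1% serum groups between 1817 and 3492.

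Both subunits of ribonucleotide reductase fell in low serum. RRM2 (ENSG00000171848, chromosome 2, 10120698 to 10131419 on the plus strand, GRCh38) encodes the small subunit that carries the tyrosyl radical and limits the enzyme in S phase. On the spike-in scale it stood at 14233, 12166 and 2268 in WT_10 libraries 1 to 3 and at 1874, 2375 and 3500 in WT_01 libraries 7 to 9. The groups overlapped, because library 3 lay below libraries 8 and 9. The log2 fold change was -1.89 ± 0.45 (SE, n = 3 against 3, edgeR adjusted p = 0.000909), and RRM2 was called in all 12 fits that left out 1 library. Its values were 17176, 15134 and 5862 in Leo1_10 and 3492, 1817 and 7568 in Leo1_01. Here library 12 was above library 6, and the log2 fold change was -1.57 ± 0.45 (edgeR adjusted p = 0.00777). About 20.2% of the exon bases of RRM2 also belong to an annotated gene on the same strand (AC007240.1), which is not among the genes counted. Of the 58-base stretches of RRM2, 19.6% occur in another gene's transcripts. Most of these are the same overlap (19.2% in AC007240.1), and 1.56% occur in RRM2P3. Their effect on the counts of RRM2 was not estimated.

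RRM1 (ENSG00000167325, chromosome 11, 4094707 to 4138876, plus strand), the large catalytic and regulatory subunit, stood at 12933, 10645 and 4031 in WT_10 and at 2541, 3115 and 2797 in WT_01. All 3 low serum values were below all 3 values in 10% serum, which was the case for 53.4% of all genes. The log2 fold change was -1.71 ± 0.45 (edgeR adjusted p = 0.00293). In ΔLEO1 cells RRM1 was 13493, 11248 and 5905 (Leo1_10) and 2979, 1577 and 6553 (Leo1_01), with library 12 above library 6. The fold change there was -1.46 ± 0.45 on the log2 scale (edgeR adjusted p = 0.0119).

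No difference between serum levels was called in the ratio of the subunits. The log2 ratio of RRM2 to RRM1 counts within a library, which no scaling touches, was 0.14, 0.19 and -0.83 in WT_10 and -0.44, -0.39 and 0.32 in WT_01. The ratio was 0.35, 0.43 and -0.01 in Leo1_10 and 0.23, 0.20 and 0.21 in Leo1_01. Libraries 3 and 9 thus reversed the order of the wild-type groups. Over both genotypes the ratio differed by -0.02 between the serum levels (p = 0.945, adjusted p = 0.945, two-sided exact permutation test of library labels within genotype, 400 permutations, smallest possible p 0.005, adjusted over 8 ratio tests). RRM2 relative to RRM2B, the p53-inducible small subunit of resting cells, differed by -0.28 (exact permutation p = 0.535, adjusted p = 0.64), and by genotype the ratios differed by 0.40 and 0.53 with adjusted p of 0.24 and 0.43 in the same exact test. Without libraries 3, 6, 9 and 12, the log2 difference by serum was -0.38 for RRM2 to RRM1 and -1.01 for RRM2 to RRM2B (exact permutation adjusted p = 0.0635 for both), a set in which no ratio could reach the threshold. RRM2 to RRM2B differed by serum by -0.54 without library 3 and by -0.53 without library 9.

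The 3 enzymes of the thymidylate branch were called lower in low serum in both genotypes. TYMS (ENSG00000176890, chromosome 18, 657604 to 673578, plus strand), thymidylate synthase, stood at 8442, 6872 and 1433 in WT_10 and at 1210, 1533 and 2031 in WT_01 on the spike-in scale. Library 3 lay below libraries 8 and 9, and the log2 fold change was -1.81 ± 0.45 (edgeR adjusted p = 0.00171). In ΔLEO1 cells TYMS was 6826, 5812 and 2848 (Leo1_10) and 1707, 948 and 3690 (Leo1_01), a log2 fold change of -1.29 ± 0.45 (edgeR adjusted p = 0.023), again with overlap through libraries 6 and 12. ENOSF1 lies on the opposite strand over 39.2% of the exon bases of TYMS, and the strand setting of the counting is not given in the sources used here. ENOSF1 had 178 to 341 counts in a library against 667 to 2563 for TYMS.

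DUT (ENSG00000128951, chromosome 15, 48331011 to 48343373, plus strand) encodes the dUTPase, which keeps uracil out of DNA and yields the dUMP that TYMS uses. It was 7136, 5728 and 3038 in WT_10 and 1967, 2750 and 2093 in WT_01, with no overlap, and its log2 fold change of -1.22 ± 0.45 (edgeR adjusted p = 0.0307) was the smallest among the 7 called. Leo1_10 stood at 6679, 5331 and 4127 and Leo1_01 at 2061, 1165 and 3958, also without overlap, which held for 50.9% of all genes in that comparison (log2 fold change -1.17 ± 0.45, edgeR adjusted p = 0.0327). DUT on the gene scale was at 53.1 ± 6.84 CPM (SD, n = 3) in WT_10 and 46.5 ± 7.43 in WT_01, a log2 fold change of -0.19 (edgeR adjusted p = 0.319).

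DTYMK (ENSG00000168393, chromosome 2, 241675742 to 241686991, minus strand), thymidylate kinase, takes dTMP to dTDP. It stood at 2869, 2210 and 994 in WT_10 and at 669, 828 and 837 in WT_01, with no overlap (log2 fold change -1.38 ± 0.47, edgeR adjusted p = 0.0205). DTYMK was 2965, 2222 and 1493 in Leo1_10 and 775, 416 and 1514 in Leo1_01 (log2 fold change -1.31 ± 0.47, edgeR adjusted p = 0.0247). The values of libraries 6 and 12 were nearly equal.

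Of the salvage kinases, TK1 had the largest fall of the 8 in both genotypes on the spike-in scale. TK1 (ENSG00000167900, chromosome 17, 78174075 to 78187233, minus strand) phosphorylates thymidine in the cytosol, and its protein is destroyed at the end of mitosis. It stood at 7153, 6492 and 1607 in WT_10 and at 805, 1018 and 1627 in WT_01. Library 9 just exceeded library 3, and the other low serum libraries were below all of WT_10. The fall was 4.41-fold (log2 fold change -2.14 ± 0.45, edgeR adjusted p = 0.000166). In ΔLEO1 cells TK1 was 13958, 10634 and 4709 (Leo1_10) and 2241, 1207 and 4171 (Leo1_01), with no overlap, a 3.85-fold fall (log2 fold change -1.94 ± 0.45, edgeR adjusted p = 0.000991). TK1 was called in all 12 fits without 1 library in both comparisons.

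DCK (ENSG00000156136, chromosome 4, 70992538 to 71030914, plus strand), deoxycytidine kinase, also phosphorylates deoxyadenosine and deoxyguanosine and activates nucleoside drugs. It stood on the spike-in scale at 2697, 2108 and 815 in WT_10 and 517, 715 and 441 in WT_01, and in ΔLEO1 cells at 2907, 2284 and 1685 against 524, 350 and 1395, without overlap in either genotype. The log2 fold changes were -1.75 ± 0.47 (edgeR adjusted p = 0.00388) and -1.60 ± 0.47 (edgeR adjusted p = 0.00946). DCK was also the only member called lower on both scales in both genotypes, with gene-scale values of 18.2 ± 5.31 CPM (SD, n = 3) in WT_10, 11.2 ± 0.443 in WT_01, 18.4 ± 1.67 in Leo1_10 and 12.05 ± 2.196 in Leo1_01. On that scale its log2 fold changes were -0.70 ± 0.22 (edgeR adjusted p = 0.00659) and -0.61 ± 0.22 (edgeR adjusted p = 0.0209), and its groups again did not overlap, as for 23.7% and 21% of all genes. MOB1B, on the same strand, shares 6.17% of the exon bases of DCK and 4.26% of its 58-base stretches. MOB1B had 950 to 1943 counts in a library against 311 to 888 for DCK. The effect of this overlap on the counts of DCK was not estimated.

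SAMHD1 (ENSG00000101347, chromosome 20, 36889773 to 36951901, minus strand) was called lower in ΔLEO1 cells but not in wild-type cells. On the spike-in scale it stood at 4162, 3526 and 2385 in WT_10 and at 2077, 2674 and 1419 in WT_01, with library 8 above library 3 (log2 fold change -0.71 ± 0.45, edgeR adjusted p = 0.168, not called). Its values were 13530, 12758 and 6050 in Leo1_10 and 3000, 1590 and 4058 in Leo1_01, with no overlap (log2 fold change -1.90 ± 0.45, edgeR adjusted p = 0.00127). That call held in all 12 fits without 1 library. SAMHD1 on the gene scale was 33.8, 34.5 and 35.6 CPM in WT_10 and 43.1, 42.7 and 37.3 in WT_01, slightly higher in every low serum library, as for 24.7% of all genes (log2 fold change 0.24 ± 0.20, edgeR adjusted p = 0.373), and the sign was therefore opposite to that on the spike-in scale. It was 87.5, 110.9 and 59.5 CPM in Leo1_10 and 58.2, 52.3 and 42.1 in Leo1_01, lower in every low serum library (log2 fold change -0.76 ± 0.20, edgeR adjusted p = 0.00131).

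Several of these calls depended on single libraries or on the scale. Without WT_10 library 1, only TK1 and RRM2 were called in wild-type cells, and the adjusted p of TYMS, RRM1 and DCK was 0.0581, 0.0558 and 0.0682. The share of all genes called lower in that fit was 8.94%, in place of 36.1%. Leaving out library 2, 7 or 9 removed DUT and DTYMK and left 5, beside 13.3%, 8.64% and 9.80% of all genes. In ΔLEO1 cells, leaving out library 4, 10 or 11 left 2 calls (TK1 and SAMHD1), beside 5.98%, 4.86% and 8.30% of all genes, and leaving out library 5 left 5, beside 22.7%. In wild-type cells 2 members were called lower on the gene scale, RRM1 (log2 fold change -0.62 ± 0.25, edgeR adjusted p = 0.0461) and DCK, beside 16.6% of all genes, and 2 in ΔLEO1 cells, DCK and SAMHD1, beside 12.9%. TK1 had a gene-scale log2 fold change of -0.94 ± 0.42 in wild-type cells (edgeR adjusted p = 0.0727) and -0.86 ± 0.42 in ΔLEO1 cells (edgeR adjusted p = 0.116), with RRM2 at -0.67 ± 0.46 and -0.54 ± 0.46.

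**Figure D2:**
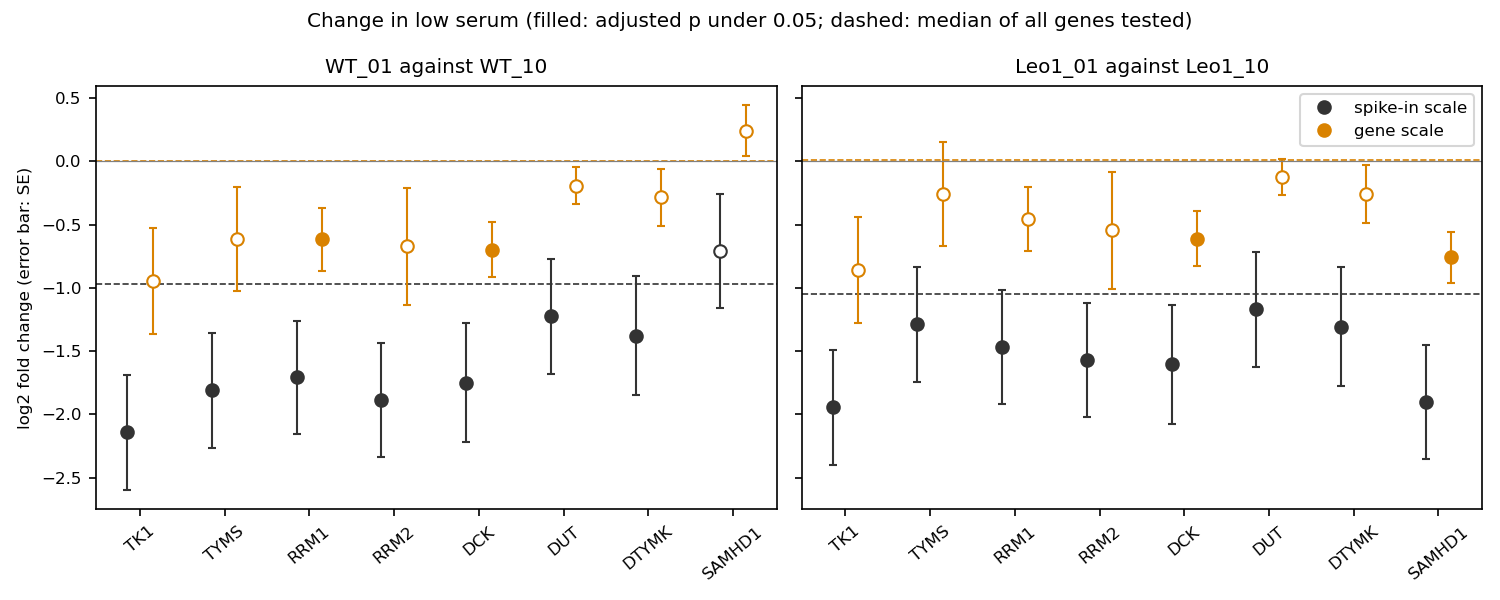
Log2 fold change of each member in 0.1% against 10% serum, in wild-type cells (left) and ΔLEO1 cells (right), on the spike-in scale (dark) and the gene scale (orange). Error bars are SE of the fit, filled points have an adjusted p under 0.05 and dashed lines are the medians of all genes tested. SAMHD1 is at -0.71 and 0.24 in wild-type cells and at -1.90 and -0.76 in ΔLEO1 cells.

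Without libraries 3, 6, 9 and 12 the differences between serum levels were larger for TK1, RRM2 and TYMS. Libraries 3 and 6 had the lowest proliferation sums of their groups, and 9 and 12 the highest. Leaving them out thus widens the difference in proliferation genes by construction. The spike-in median of all genes tested was then -1.03 in wild-type cells and -1.72 in ΔLEO1 cells. TK1 was on the spike-in scale at -2.90 (log2) in wild-type cells and -2.84 in ΔLEO1 cells, RRM2 at -2.64 and -2.61 and TYMS at -2.48 and -2.25. The 7 members other than SAMHD1 were called in wild-type cells (beside 72.4% of all genes) and all 8 in ΔLEO1 cells (beside 93.1%). On the gene scale the same 8 libraries gave -1.88 and -1.13 for TK1, -1.61 and -0.93 for RRM2 and -1.45 and -0.56 for TYMS. All 7 were called lower and SAMHD1 higher (0.33, edgeR adjusted p = 0.00363) in wild-type cells, beside 30.8% of all genes lower and 28% higher, and all 8 lower in ΔLEO1 cells (28.4%).

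Between genotypes in 10% serum, SAMHD1 was the only member called, and it was higher in the ΔLEO1 clone. Its 3 values in Leo1_10 (6050 to 13530 on the spike-in scale) lay above the 3 in WT_10 (2385 to 4162), as did those of 23.7% of all genes. The difference was 3.21-fold (log2 fold change 1.68 ± 0.45, edgeR adjusted p = 0.00491, quasi-likelihood test 0.01), where 4.2% of all genes were called higher by the first test and 3.81% by the second, and no member was called lower (4.64%). It was also called on the gene scale (1.31 ± 0.20, edgeR adjusted p = 1.63e-09), where 17.7% of all genes were called higher. Without libraries 3, 6, 9 and 12 it was 1.77 on the spike-in scale (edgeR adjusted p = 2.62e-05, beside 6.72% of all genes higher). Without library 3, 4 or 5 alone the adjusted p exceeded the threshold and reached 0.0555 at most. TLDC2, which overlaps 10.3% of the exon bases of SAMHD1 on the opposite strand, had at most 14 counts in a library.

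In 0.1% serum SAMHD1 was not called between genotypes. On the spike-in scale the values of Leo1_01 (1590 to 4058) and WT_01 (1419 to 2674) overlapped (log2 fold change 0.49 ± 0.45, edgeR adjusted p = 0.762), and on the gene scale every ΔLEO1 library but library 12 was above every wild-type library (0.31 ± 0.20, edgeR adjusted p = 0.241). The interaction term, which is the change with serum in ΔLEO1 cells less that in wild-type cells, was -1.20 ± 0.64 for SAMHD1 on the spike-in scale (edgeR adjusted p = 1, not called) and -0.9998 ± 0.28 on the gene scale (edgeR adjusted p = 0.0166), where 1.02% of all genes were called lower. Without libraries 3, 6, 9 and 12 it was -1.82 on the spike-in scale (edgeR adjusted p = 0.0406, beside 0.736% of all genes called lower) and -1.17 on the gene scale (3.53e-14, beside 9.99%). SAMHD1 is abundant in leukocytes, and PTPRC, which encodes the leukocyte antigen CD45, differed between the genotypes too. PTPRC was at 0.204 to 0.627 CPM in the 6 wild-type libraries, at 5.95, 5.94 and 1.37 CPM in Leo1_10 and at 7.10, 6.92 and 5.64 CPM in Leo1_01. The macrophage marker CD68 was at 0.428 to 1.45 CPM in all 12. In 0.1% serum CD68 went the other way than PTPRC. It was at 1.13, 1.45 and 1.28 CPM in WT_01 and at 0.748, 0.769 and 0.482 in Leo1_01. In 10% serum the CD68 values of the genotypes overlapped. The epithelial marker CDH1, too low to be tested, had 8, 10 and 13 counts in WT_10 and 40, 38 and 63 in Leo1_10. It had 2, 0 and 2 counts in WT_01 and 9, 18 and 19 in Leo1_01. EPCAM, also epithelial, had 4, 6 and 4 counts in WT_01 and 3, 3 and 1 in Leo1_01. Over all 12 markers of other cell types, 5 to 9 had counts in a library, and their sum was 2.17 to 2.82 CPM in wild-type and 4.01 to 9.03 CPM in ΔLEO1 libraries. Their part in the result was not tested.

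The other 7 members were not called between genotypes in 10% serum or 0.1% serum. No member was called in Leo1_01 against WT_01 by the likelihood ratio test (1 had an unadjusted p under 0.05, TK1), by the quasi-likelihood test or by DESeq2. Of all genes, the first called 3.59% lower and 3.85% higher, and the second 3.41% and 3.49%. TK1 had the largest positive value among the 7 in both conditions on the spike-in scale, 0.94 ± 0.45 (log2, edgeR adjusted p = 0.251) in 10% serum and 1.14 ± 0.45 (edgeR adjusted p = 0.136) in 0.1% serum. It was called in Leo1_01 against WT_01 in 1 of the 12 fits without a library, the one without library 11 (edgeR adjusted p = 0.00518). In that fit 9.95% of all genes were called higher, and the median of all genes was 0.58 in place of 0.27. The interaction was not called for any member on the spike-in scale with all libraries, and no member had an unadjusted p under 0.05 there by the likelihood ratio test, the quasi-likelihood test or DESeq2. The interaction was called lower for 0.0831% and higher for 0.136% of all genes by the first test, and for 0.0604% and 0.113% by the second. Without libraries 3, 6, 9 and 12 and on the gene scale, TK1 was 1.33 higher (log2) in Leo1_01 than in WT_01 and 0.59 higher in Leo1_10 than in WT_10, while TYMS was 0.37 higher in 0.1% serum and -0.52 in 10% serum. In that fit the interaction was also called for TK1 (0.75), TYMS (0.90) and RRM2 (0.68), where 17.5% of all genes were called higher. Between genotypes it called 4 members lower and 2 higher in 10% serum (32.6% and 31% of all genes) and 4 higher in 0.1% serum (31.1%).

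The balance of the thymidine kinases differed between genotypes and between serum levels. TK2 is the mitochondrial thymidine kinase, which is made in resting cells too. The log2 ratio of TK1 to TK2 counts was 0.62, 0.72 and -0.48 in WT_10 and 1.95, 1.89 and 1.32 in Leo1_10, without overlap. In 0.1% serum it was -1.08, -1.17 and 0.30 in WT_01 and 0.55, 0.52 and 0.53 in Leo1_01, again without overlap. The ΔLEO1 clone was higher by 1.31 (exact permutation p = 0.005, the smallest that 400 permutations within serum level allow, adjusted p = 0.04), which amounts to 1.43 in 10% serum and 1.18 in 0.1% serum, each with an exact p of 0.1, the smallest that 3 against 3 can give. Low serum lowered the ratio by 1.06 (log2 difference -1.06, exact permutation p = 0.01, adjusted p = 0.04), which amounts to -0.94 in wild-type and -1.19 in ΔLEO1 cells, with overlap in wild-type cells through libraries 3 and 9. On the gene scale in 10% serum, TK1 had a log2 fold change of 0.65 between genotypes (edgeR adjusted p = 0.217), and TK2 was at 36.6 ± 2.81 CPM (SD, n = 3) in WT_10 and 22.3 ± 3.31 in Leo1_10 (log2 fold change -0.72, edgeR adjusted p = 6.47e-07). In the exact test without library 10, 11 or 12, the adjusted p was 0.06 for both differences, and that of the serum difference was 0.06 to 0.16 in 10 of the 12 sets of 11 libraries. Without libraries 3, 6, 9 and 12 the differences were 1.45 by genotype and -1.59 by serum (exact permutation adjusted p = 0.0635 for both).

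**Figure D3:**
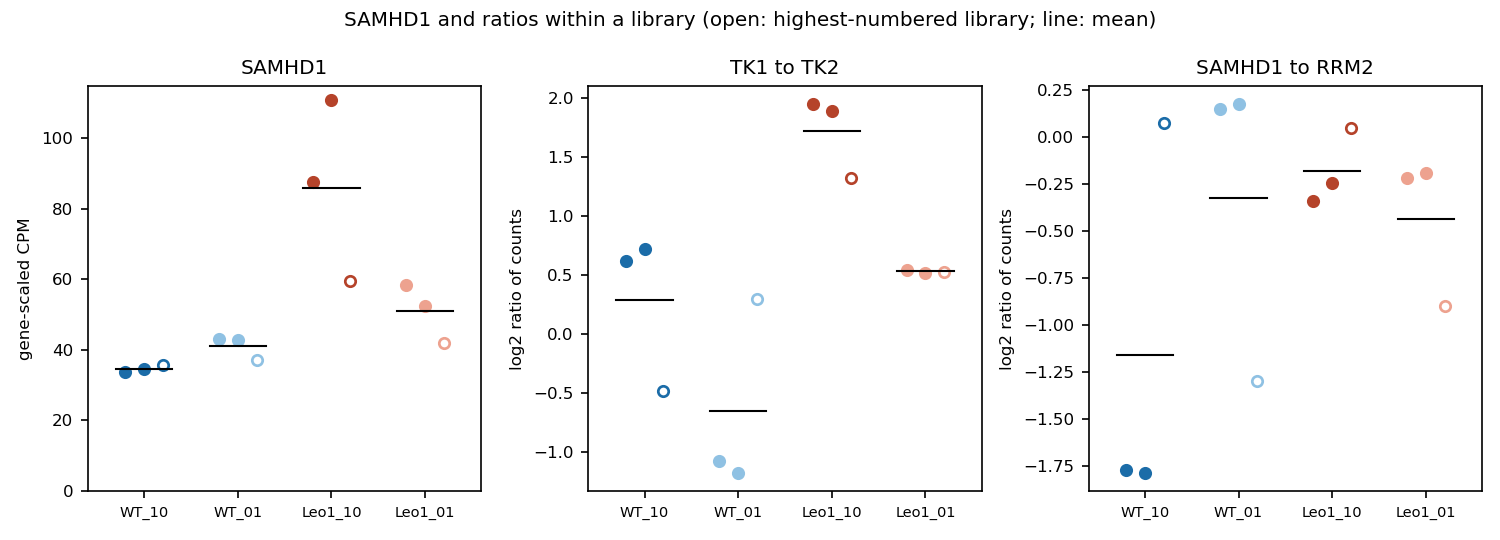
SAMHD1 in CPM on the gene scale (left, axis from 0), the log2 ratio of TK1 to TK2 counts (middle) and the log2 ratio of SAMHD1 to RRM2 counts (right) in the 12 libraries, by group. Open points are the highest-numbered libraries and lines are means of 3. The TK1 to TK2 ratio lies between 0.52 and 0.55 in the 3 Leo1_01 libraries and between -1.17 and 0.30 in WT_01.

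The ratio of SAMHD1 to RRM2, the enzyme that removes deoxynucleotides against the subunit that limits their making, was not called by serum or genotype. Its log2 value was -1.77, -1.79 and 0.07 in WT_10 and 0.15, 0.17 and -1.30 in WT_01, so that libraries 3 and 9 each resembled the other group. The ratio was -0.34, -0.25 and 0.05 in Leo1_10 and -0.22, -0.19 and -0.90 in Leo1_01, a narrower range than in wild-type cells. The serum difference was 0.29 (exact permutation p = 0.56, adjusted p = 0.64) and the genotype difference 0.44 (p = 0.31, adjusted p = 0.496). These means join values of opposite sign: by serum 0.83 in wild-type and -0.26 in ΔLEO1 cells, and by genotype 0.98 in 10% serum and -0.11 in 0.1% serum. The serum difference was 0.60 without library 3, 0.53 without library 9 and 1.01 without libraries 3, 6, 9 and 12 (exact permutation adjusted p = 0.0635 for the last, which could not pass the threshold). The genotype difference was 0.74 without library 3, 0.19 without library 9 and 0.56 without all 4.

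The members differed in level and in how far they ranged. The length used here is the union of all annotated exons, 11261 bases for SAMHD1 and 3227 for DCK. Their longest transcripts have 5492 and 2716 bases, and the order and overlaps of the levels below depend on that choice. Per kilobase of exon on the gene scale, TK1 was at 41.0 ± 14.0 CPM per kb (SD, n = 3) in Leo1_10 and at 22.6 ± 1.13 in Leo1_01, above all other members there with no overlap with the next, RRM1. In wild-type cells the levels of TK1 (26.1 ± 11.5 CPM per kb in WT_10), RRM1 (21.5 ± 6.16), TYMS (21.2 ± 10.9) and RRM2 (16.8 ± 9.07) overlapped between neighbours. DUT (14.5 ± 1.86 CPM per kb) followed, clear of DTYMK (8.13 ± 1.84), which overlapped DCK (5.65 ± 1.65). SAMHD1 was lowest in WT_10 (3.08 ± 0.0771 CPM per kb) with no overlap with DCK. In WT_01 and Leo1_01 SAMHD1 and DCK were the 2 lowest and overlapped, and in Leo1_10 SAMHD1 (7.63 ± 2.28 CPM per kb) overlapped DTYMK.

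Over the 12 libraries the root mean square deviation of log2 CPM (gene scale) from a gene's own mean was 0.785 for TK1, 0.664 for RRM2, 0.549 for TYMS and 0.521 for SAMHD1, and 0.197 for DUT. The genes with the pattern nearest to a member's were found by the root mean square difference of these centred values over the 12 libraries, among 8899 genes with a mean of at least 10 CPM, as a description. For RRM2 they were PKMYT1, a kinase that restrains entry into mitosis (0.0547), MELK (0.107) and BUB1B, a spindle checkpoint kinase (0.117). For TK1 they were CDC6, which loads the replicative helicase (0.174), CEP55 (0.201) and FAM111B (0.217), and for TYMS ASF1B, a histone chaperone (0.156), BRCA1 (0.172) and FANCI (0.189). RRM1 lay nearest to DSN1, the checkpoint kinase CHEK1 and NSD2 (0.108 to 0.119), DCK to DONSON, SHLD2 and LIN54 (0.129 to 0.161), and DUT to NABP2, COX15 and ELP6 (0.0580 to 0.0890). DTYMK lay nearest to LSM4, DYNC2I2 and DUT (0.115 to 0.149). SAMHD1 lay nearest to PPAT, the first committed enzyme of purine synthesis, followed by TMEM164 and HSPD1 (0.19 to 0.237). Among the members, SAMHD1 was 0.575 to 0.755 from the other 7, which were 0.149 to 0.749 from each other.

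Other genes of deoxynucleotide supply fell less than the members in the median. Of 14 further genes of this kind (other kinases, deaminases, transporters and subunits) 12 were tested. On the spike-in scale 7 were called lower in wild-type cells and 9 in ΔLEO1 cells, beside 36.1% and 47.2% of all genes. Their medians were -1.20 and -1.23 (log2). RRM2B was at -1.18 ± 0.46 (edgeR adjusted p = 0.0366) and -1.28 ± 0.46 (0.0237), and NME1, a nucleoside diphosphate kinase, at -1.31 ± 0.47 (edgeR adjusted p = 0.025) and -1.51 ± 0.46 (0.0119). TK2 was at -1.02 ± 0.46 (edgeR adjusted p = 0.0627) and -0.67 ± 0.46 (0.184), and DGUOK, the mitochondrial deoxyguanosine kinase, at -0.89 ± 0.46 (edgeR adjusted p = 0.0946) and -1.21 ± 0.46 (0.03). DCTD, which deaminates dCMP to dUMP, was at -1.02 ± 0.45 (edgeR adjusted p = 0.0588) and -1.25 ± 0.45 (0.0245). Of the 12, 3 and 1 were called lower on the gene scale and 0 and 1 higher, the latter TK2 in ΔLEO1 cells (0.39, edgeR adjusted p = 0.0165). Of all genes, 16.6% and 12.9% were called lower on that scale and 16.0% and 16.5% higher. The deaminase CDA, which acts on cytidine and deoxycytidine, was sparse, with 8, 13 and 38 counts in WT_10, 0, 0 and 2 in WT_01, 43, 57 and 70 in Leo1_10 and 10, 4 and 7 in Leo1_01. It was called lower in low serum in both genotypes and higher in ΔLEO1 cells in both serum levels on both scales.

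The folate cycle, which gives TYMS its methyl group, had 11 of 13 tested genes called lower in wild-type cells and 10 of 13 in ΔLEO1 cells. The shares of all genes were 36.1% and 47.2%, and the medians of the list were -1.39 and -1.23 on the log2 spike-in scale. SHMT1 was at -1.63 ± 0.49 (edgeR adjusted p = 0.00936), mitochondrial SHMT2 at -1.61 ± 0.45 (0.00483) and MTHFD2 at -1.39 ± 0.45 (0.0143) in wild-type cells. SLC46A1, a folate transporter, had the largest fall of the list in wild-type cells, at -2.39 ± 0.51 (edgeR adjusted p = 0.000185). GGH, which trims stored folates, was called lower on both scales in both genotypes (gene scale -0.61, edgeR adjusted p = 0.0225, and -0.71, 0.00757). Of the 13, 4 and 2 were called lower and 0 and 1 higher on the gene scale. The shares of all genes there were 16.6% and 12.9% lower and 16.0% and 16.5% higher.

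For purine synthesis 7 of 15 genes were called lower in wild-type cells and 12 of 15 in ΔLEO1 cells (medians -1.17 and -1.29), and for pyrimidine synthesis 3 and 4 of 8 (-1.02 and -1.08), beside 36.1% and 47.2% of all genes and medians of all genes of -0.97 and -1.05. IMPDH1, which makes the precursor of guanine nucleotides, was called lower on both scales in both genotypes, at -1.73 ± 0.45 (edgeR adjusted p = 0.00253) and -1.57 ± 0.45 (0.00774), and on the gene scale at -0.77 (1.05e-09) and -0.55 (3.29e-05). PPAT was at -0.97 ± 0.47 (edgeR adjusted p = 0.0811) and -1.71 ± 0.47 (0.00595). IMPDH2, the paralog of IMPDH1, was at -0.80 ± 0.45 (edgeR adjusted p = 0.12) and -0.67 ± 0.45 (0.174), and on the gene scale at 0.20 and 0.42 (edgeR adjusted p = 0.179 and 0.00242), so that its sign depended on the scale. CTPS1, which makes CTP from UTP, was at -1.37 ± 0.45 (edgeR adjusted p = 0.0165) and -1.90 ± 0.45 (0.0013). Of 11 genes of nucleoside breakdown and pool cleaning, 6 and 8 were called lower (medians -1.12 and -1.23). Among them PNP, purine nucleoside phosphorylase, was at -1.95 ± 0.48 (edgeR adjusted p = 0.0015) and -1.82 ± 0.48 (0.00391), and it was higher in the ΔLEO1 clone in both conditions (1.47 ± 0.48, edgeR adjusted p = 0.0326, and 1.60 ± 0.48, 0.019). DCTPP1, which removes modified dCTP, was at -1.20 ± 0.48 (edgeR adjusted p = 0.0419) and -1.41 ± 0.48 (0.0195). No gene of these lists was called higher in low serum on the spike-in scale. On the gene scale, 3 and 6 of the purine genes were called lower and 0 and 1 higher. Of the pyrimidine genes 0 and 0 were called lower there and 0 and 1 higher, and of the breakdown genes 3 and 1 lower and 1 and 2 higher. The shares of all genes on that scale were 16.6% and 12.9% lower and 16.0% and 16.5% higher.

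Among 20 genes of proliferation 19 were called lower in both genotypes, beside 36.1% and 47.2% of all genes. Their medians were -1.73 and -1.66, against -1.73 and -1.52 for the members. Of these 20, 5 and 3 were called lower on the gene scale, beside 16.6% and 12.9% of all genes. MKI67, the proliferation marker Ki-67, was at -2.25 ± 0.45 in wild-type cells (edgeR adjusted p = 5.67e-05) and CCNA2, cyclin A2, at -2.16 ± 0.46 in ΔLEO1 cells (0.000266). All 20 were called lower in both genotypes on the spike-in scale without libraries 3, 6, 9 and 12, and 19 and 18 on the gene scale. With the remaining 8 libraries the gene-scale counts were 11 and 9 of 13 for the folate cycle, 8 and 8 of 15 for purine synthesis, 1 and 2 of 8 for pyrimidine synthesis, 5 and 5 of 11 for the further supply genes and 5 and 3 of 11 for breakdown, beside 30.8% and 28.4% of all genes. The spike-in counts were 13 and 13, 15 and 15, 7 and 7, 11 and 11, and 10 and 9 in the same order, beside 72.4% and 93.1%. The lists were not tested as sets.

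**Figure D4:**
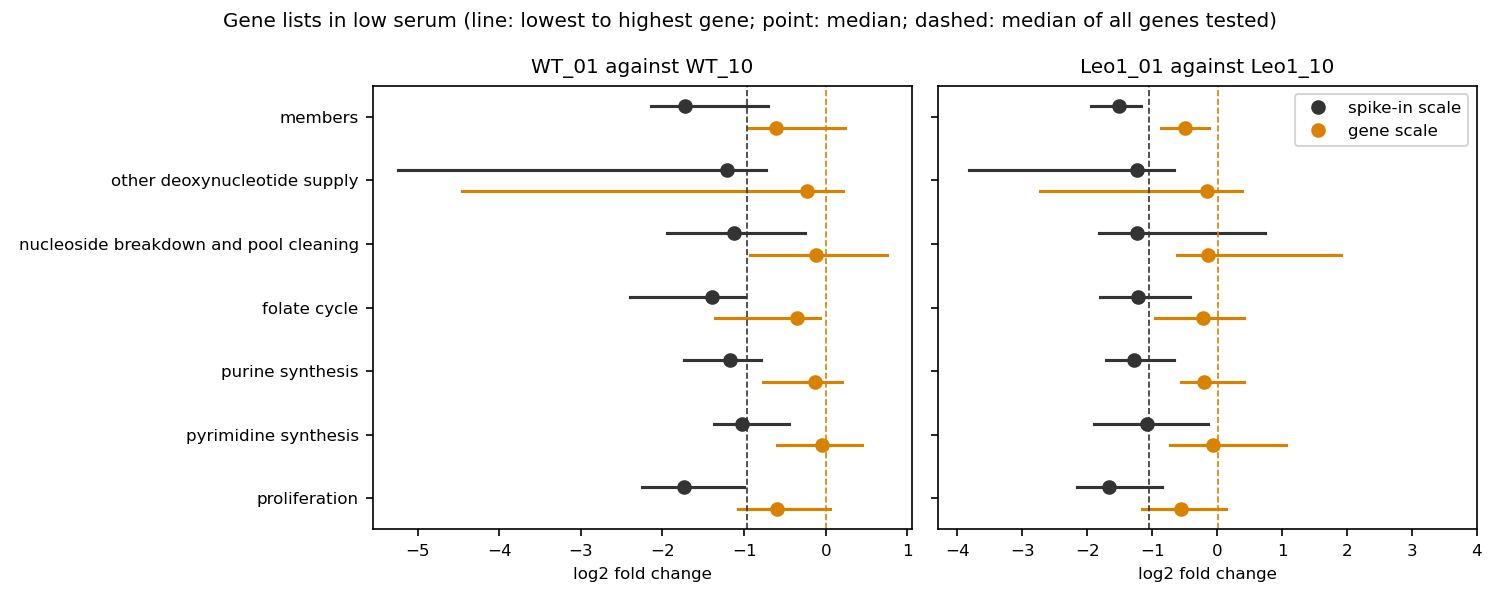
Log2 fold change in 0.1% against 10% serum of the members and of 6 lists of related genes, in wild-type cells (left) and ΔLEO1 cells (right), on the spike-in scale (dark) and the gene scale (orange). Lines run from the lowest to the highest gene, points are medians and dashed lines are medians of all genes tested. The members and the proliferation genes have spike-in medians between -1.73 and -1.52, and those of the other lists lie between -1.39 and -1.02.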

How the data were processed

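Poly(A) RNA of 12 libraries in 4 groups of 3 was sequenced. Per the labels and the study's methods, the authors used STAR to map read pairs to GRCh38 and the spike sequences, took exon counts from featureCounts 1.5.1 and deposited raw counts per gene and per ERCC transcript, not normalized. The submitters' processing notes give STAR 2.7.10a. The annotation release and strand setting are not given in the sources used here. Every column of the tables belonged to a sample.

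Genes with more than 1 CPM in at least 3 libraries (13236) were fitted in R 4.3.3 with edgeR 4.0.16 (limma 3.58.1), all 12 libraries in 1 negative binomial model of 4 groups, with the ERCC total times the ERCC TMM factor as library size and two-sided likelihood ratio tests. SE are Wald errors at the gene's dispersion. The quasi-likelihood test and DESeq2 1.42.0 were run beside it. Ratios used a prior count of 0.5 and exact permutation of labels within strata (numpy 2.4.6). The model was tested on simulated counts for the real genes, in which some genes were changed in WT_01 only. The likelihood ratio test recovered 81 of 100 genes changed by 2 (log2) and 99 of 100 changed by 3. It called 13 of 13036 unchanged genes. Unlike the real data, the simulation held no shift of most genes and no libraries that stood apart. Positions, exon lengths and overlaps came from GENCODE on GRCh38, and promoters from RefSeq, GRCh38.p14, which matched all 8 members. The smallest member count in a library was 311, and counting error was not estimated separately.

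The members, gene lists, named genes and alternatives were chosen with earlier results of these data known. Named genes were the 8 members, LEO1, fixed genes of related pathways, the called gene with the largest change of each list and 3 nearest patterns per member. The values of 1 such gene are not reported here. CDA counts, PTPRC, CD68, CDH1 and EPCAM were named after their values were seen. Alternatives were the scaling, the test, the filter, the threshold, the prior count, the libraries fitted, a term for the highest-numbered library of each group, and each library left out. The fit without the highest-numbered libraries on the gene scale was added after seeing the data. ChIP-seq data of the study were not analysed here.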

Additional observations from a re-analysis of the deposited data

Results flagged for a closer look

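The response of SAMHD1 to low serum differed between the genotypes on the gene scale, by a test of the difference itself. The change in ΔLEO1 cells less that in wild-type cells was -0.9998 ± 0.28 (log2, SE, edgeR likelihood ratio test, adjusted p = 0.0166). That interaction was called lower for 1.02% of all genes. In wild-type cells all 3 low serum libraries lay above all 3 libraries in 10% serum on that scale, as for 24.7% of all genes. The wild-type change itself (0.24) was not called. In ΔLEO1 cells all 3 lay below, as for 21% of all genes. On the spike-in scale the same difference was -1.20 ± 0.64 and was not called (edgeR adjusted p = 1), and both genotypes had negative changes.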

How the results depend on the processing

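No paired analysis was possible because the libraries carry running numbers that no 2 groups share. A term for the highest-numbered library of each group, which is not a pairing by the labels, gave 7 and 7 members called lower in low serum, beside 29.4% and 32.2% of all genes, with DUT lost in ΔLEO1 cells (adjusted p = 0.0529). The main limits are the 3 libraries per group, the single ΔLEO1 clone, the spread of the highest-numbered libraries and the dependence on the spikes. Each group has 1 value per library, and the SE of 0.45 to 0.47 for the members limits what 3 libraries can show.

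The counts of members called lower in low serum, 7 in wild-type and 8 in ΔLEO1 cells, were 7 and 8 with the quasi-likelihood test, 7 and 6 with DESeq2 (43.5% and 52.6% of all genes), and 6 and 7 without the filter (10.5% and 13.3%). They were 2 and 2 with TMM or with DESeq2 size factors on the genes, and 0 and 0 after summing libraries 1 and 2, 4 and 5, 7 and 8, and 10 and 11, which leaves 2 values per group and called 4.24% and 1.23% of all genes lower. In ΔLEO1 cells the count was 4 at a threshold of 0.01 (9.61% of all genes) and 5 with only the libraries compared (13.2%). Leaving out each library in turn gave 2 to 7 in wild-type and 2 to 8 in ΔLEO1 cells, 0 to 1 called higher in Leo1_10 against WT_10, and 0 to 1 in Leo1_01 against WT_01. The summed libraries gave 0 called higher in Leo1_10 against WT_10. The interaction was called lower for 1 member (SAMHD1) under both gene scalings, without the highest-numbered libraries, and without them on the gene scale. Without them on the gene scale, 1 member was called higher in WT_01 against WT_10, 4 were lower and 2 higher in Leo1_10 against WT_10, 4 were higher in Leo1_01 against WT_01, and 3 were higher in the interaction.

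The log2 ratio of TK1 to TK2 was -1.59 by serum and 1.45 by genotype without the highest-numbered libraries, where the smallest p possible is above the threshold. Leaving out each library gave -1.30 to -0.93 by serum, 1.12 to 1.55 by genotype, and for RRM2 to RRM1 -0.19 to 0.067 by serum and 0.24 to 0.53 by genotype, the last past the threshold without library 9.

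The signs that turned included uncalled differences between genotypes and, in low serum, 2 values called on the spike-in scale, CTPS1 (-1.37) in wild-type and DGUOK (-1.21) in ΔLEO1 cells. In Leo1_10 against WT_10, TMM and DESeq2 size factors on the genes gave RRM1 -0.15 and -0.13, DUT -0.29 and -0.28, and DTYMK -0.17 and -0.16, and the summed libraries gave TYMS 0.013. In Leo1_01 against WT_01 they gave DUT -0.23 and -0.22 and DTYMK -0.14 and -0.14, and TMM gave TYMS -0.0046. In low serum, SAMHD1 was at 0.24 and 0.25 in wild-type cells, DGUOK at 0.057 and 0.058, and IMPDH2 at 0.20 and 0.20, while in ΔLEO1 cells TK2 was at 0.39 and 0.39 and IMPDH2 at 0.42 and 0.42. Without the highest-numbered libraries, Leo1_01 against WT_01 gave TYMS -0.048, RRM1 -0.31, DCK -0.50, DUT -0.55, DTYMK -0.33 and SAMHD1 -0.050. The interaction there was -0.38 for RRM1, -0.61 for DCK, -0.45 for DUT and -0.36 for DTYMK, and DUT was -0.099 in Leo1_10 against WT_10. Without them on the gene scale, Leo1_10 against WT_10 gave RRM1 -0.18, DCK -0.14, DUT -0.35 and DTYMK -0.23 (called for RRM1, DUT and DTYMK), and Leo1_01 against WT_01 gave DCK -0.030 and DUT -0.11. In low serum it gave SAMHD1 0.33, DGUOK 0.095, CTPS1 0.090, IMPDH2 0.12 and PPAT 0.063 in wild-type cells, and TK2 0.25, DGUOK 0.10 and IMPDH2 0.42 in ΔLEO1 cells. The cause was not tested.

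Leaving out 1 library turned the sign of these log2 values, none of them called. In Leo1_10 against WT_10 the ranges were -0.57 to 0.32 for TYMS, -0.21 to 0.49 for RRM1, -0.053 to 0.83 for RRM2, -0.068 to 0.66 for DCK, -0.26 to 0.31 for DUT and -0.19 to 0.49 for DTYMK. In Leo1_01 against WT_01 they were -0.26 to 0.76 for TYMS, -0.31 to 0.76 for RRM1, -0.35 to 0.78 for DCK, -0.49 to 0.41 for DUT and -0.39 to 0.56 for DTYMK. For the interaction they were -0.36 to 0.62 for TK1, -0.15 to 0.98 for TYMS, -0.46 to 0.61 for RRM1, -0.37 to 0.78 for RRM2, -0.64 to 0.50 for DCK, -0.51 to 0.39 for DUT and -0.52 to 0.42 for DTYMK.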

Other observations

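Among genes of the related lists that were too low to be tested, CMPK2, a mitochondrial kinase of dUMP and dCMP, had 6, 4 and 2 counts in WT_10 and 4, 5 and 12 in WT_01, and 0 in all 6 ΔLEO1 libraries. ALDH1L1, a folate enzyme, had 18, 16 and 57 counts in WT_10, 2, 3 and 7 in WT_01, 2, 6 and 9 in Leo1_10, and 0, 1 and 0 in Leo1_01. TYMP, thymidine phosphorylase, had 9 to 35 counts in every library, and the nucleoside transporter SLC29A2 had 0 to 2.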
